A study of Mus musculus with 14 samples.

Results

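Many genes can be read from more than 1 promoter, and the genes described here carried trimethylated lysine 4 of histone H3 (H3K4me3) at promoters that lay far apart. A member gene was a protein-coding mouse gene with at least 2 annotated transcription start sites (TSSs) over 5 kb apart, each with a different H3K4me3 peak within 500 bp. TSSs within 1 kb of a TSS of another gene were left out, and the peaks at the remaining distant TSSs were the member peaks. The rule found 435 genes with 1107 member peaks, which is 4.37% (95% CI 4.12 to 4.62) of the 25357 peaks on chromosomes 1 to 19, X and Y. The genes were 1.98% of 21938 annotated protein-coding genes and 4.76% of the 9132 that had a marked TSS under the same rule. No member peak belonged to more than 1 member gene.

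The peaks came from ChIP-seq in immortalised mouse embryo fibroblasts (iMEFs) of a cell clone in which exon 4 of the endogenous Ash2l gene had been deleted with Cre-ER. In every group the cells lived on a lentiviral transgene for human ASH2L fused to FKBP and HA tags, so that the compound dTAG could direct the fusion protein to degradation. Untreated cells and cells after 30 min, 2 h, 4 h, 8 h and 16 h of dTAG gave 12 H3K4me3 libraries with 2 replicates in each of the 6 groups, and 2 input libraries came from untreated cells and from 16 h. The deposited peak list joins the peaks of all groups and the deposited enhancer list describes control cells, so a promoter was called marked when it had a peak in the joint list. Both give positions only. The depth behind a peak is therefore unknown, there is no replicate error, and the effect of dTAG on these promoters was not analysed here. All 12 fibroblast marker genes examined had a peak, as did 2 of 12 markers of other cell types, Epcam (724 bp) and Cdh1 (602 bp).

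H3K4me3 is placed around active or poised start sites by SET1 and MLL family methyltransferases, of which ASH2L is a core subunit. CpG islands (CGIs) are CpG-rich stretches that recruit these enzymes through CXXC domain proteins, and they form most housekeeping promoters, whereas promoters without an island are more often used in particular tissues. A gene with alternative promoters can make transcripts with different leaders or proteins with different N-termini, a frequent arrangement in genes for cytoskeletal linkers, transcription factors and signalling regulators.

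Pairs of promoters are shown for 7 member genes, chosen from the 4 classes formed below by the presence of a CpG island at each peak. For each gene the upstream promoter is the 5'-most marked start group and the downstream promoter the 3'-most. Each stretch holds the 150 bases before the annotated start with the most transcripts, 5' to 3' on the gene's strand, from the RefSeq assembly GRCm38.p6, and CpG dinucleotides are in capitals. The stretches lay outside annotated coding exons and untranslated regions. Rara, a retinoic acid receptor gene, and Nfix, a nuclear factor I gene, had an island at both peaks. The stretches held 8 CpGs upstream and 10 downstream in Rara, and 21 and 2 in Nfix, where the downstream island lay under the peak but outside this CpG-poor stretch.
Rara upstream, chr11:98937548-98937697, plus strand: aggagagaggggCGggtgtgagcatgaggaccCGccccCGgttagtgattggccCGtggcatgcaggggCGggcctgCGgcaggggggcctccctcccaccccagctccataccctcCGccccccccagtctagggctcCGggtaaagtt
Rara downstream, chr11:98960262-98960411, plus strand: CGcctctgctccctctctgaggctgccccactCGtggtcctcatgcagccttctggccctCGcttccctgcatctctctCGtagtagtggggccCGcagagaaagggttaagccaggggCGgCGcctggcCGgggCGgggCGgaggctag
Nfix upstream, chr8:84800345-84800494, minus strand: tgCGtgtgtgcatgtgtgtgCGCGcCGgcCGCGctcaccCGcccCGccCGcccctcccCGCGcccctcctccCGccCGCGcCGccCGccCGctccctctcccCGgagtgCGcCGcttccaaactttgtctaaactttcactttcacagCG
Nfix downstream, chr8:84774370-84774519, minus strand: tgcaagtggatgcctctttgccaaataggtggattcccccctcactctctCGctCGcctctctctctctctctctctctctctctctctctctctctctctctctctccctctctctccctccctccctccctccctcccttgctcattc

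Plec, which encodes the cytoskeletal linker plectin, had an island at the upstream peak alone. The 150 bases held 15 CpGs upstream and 7 downstream. These stretches lay in other peaks of the start groups, of 1532 bp upstream and 1848 bp downstream. The island class was set by the widest peaks of the groups, of 1799 and 3145 bp.
Plec upstream, chr15:76232575-76232724, minus strand: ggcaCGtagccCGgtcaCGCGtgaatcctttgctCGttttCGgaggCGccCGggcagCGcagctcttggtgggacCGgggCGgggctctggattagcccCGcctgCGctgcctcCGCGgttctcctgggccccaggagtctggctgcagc
Plec downstream, chr15:76199836-76199985, minus strand: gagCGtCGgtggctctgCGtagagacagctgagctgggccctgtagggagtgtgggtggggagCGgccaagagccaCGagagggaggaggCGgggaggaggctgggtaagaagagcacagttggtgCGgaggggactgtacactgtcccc

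Arhgap22, a gene for a GTPase-activating protein, and Runx2, a gene for an osteoblast transcription factor, showed the opposite order. Runx2 had 0 CpGs in the upstream stretch and 12 in the downstream stretch, and Arhgap22 had 3 and 17.
Arhgap22 upstream, chr14:33250240-33250389, plus strand: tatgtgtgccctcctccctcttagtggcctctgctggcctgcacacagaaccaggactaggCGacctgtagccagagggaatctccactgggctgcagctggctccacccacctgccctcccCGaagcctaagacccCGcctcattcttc
Arhgap22 downstream, chr14:33319553-33319702, plus strand: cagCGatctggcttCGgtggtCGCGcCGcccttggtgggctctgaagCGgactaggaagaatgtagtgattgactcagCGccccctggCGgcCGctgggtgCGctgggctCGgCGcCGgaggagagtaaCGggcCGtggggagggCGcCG
Runx2 upstream, chr17:44814798-44814947, minus strand: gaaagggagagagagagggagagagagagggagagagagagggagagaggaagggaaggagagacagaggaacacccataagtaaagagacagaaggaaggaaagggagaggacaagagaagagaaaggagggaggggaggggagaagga
Runx2 downstream, chr17:44734694-44734843, minus strand: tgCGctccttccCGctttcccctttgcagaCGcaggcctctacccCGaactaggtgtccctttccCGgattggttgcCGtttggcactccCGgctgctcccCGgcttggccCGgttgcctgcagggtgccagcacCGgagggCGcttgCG

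Dst (dystonin) and Syne1 (nesprin-1), whose products link the cytoskeleton to junctions and to the nuclear envelope, had an island at neither peak. Their stretches held 0 and 9 CpGs in Dst and 5 and 9 in Syne1.
Dst upstream, chr1:34005730-34005879, plus strand: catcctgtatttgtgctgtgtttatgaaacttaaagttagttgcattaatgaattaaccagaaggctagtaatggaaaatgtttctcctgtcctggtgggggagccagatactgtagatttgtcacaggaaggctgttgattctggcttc
Dst downstream, chr1:34236446-34236595, plus strand: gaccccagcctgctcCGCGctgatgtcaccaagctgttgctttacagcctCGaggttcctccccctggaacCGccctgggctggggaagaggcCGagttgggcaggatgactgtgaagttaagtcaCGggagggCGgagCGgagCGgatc
Syne1 upstream, chr10:5550693-5550842, minus strand: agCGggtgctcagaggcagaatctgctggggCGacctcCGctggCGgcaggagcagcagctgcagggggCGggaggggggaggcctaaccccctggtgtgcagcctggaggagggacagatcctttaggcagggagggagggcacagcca
Syne1 downstream, chr10:5194708-5194857, minus strand: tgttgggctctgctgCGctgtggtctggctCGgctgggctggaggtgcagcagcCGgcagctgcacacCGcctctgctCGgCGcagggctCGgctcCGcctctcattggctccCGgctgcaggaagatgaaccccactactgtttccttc

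To see how often a distant second promoter was marked, all 8205 protein-coding genes with kept TSSs over 5 kb apart were taken as candidates. Most carried no mark or a mark at a single start group: 3015 had no marked group, 4742 had 1 and 448 had 2 or more, of which 13 failed the rule on different peaks or spacing. Members thus made up 5.30% (95% CI 4.84 to 5.81) of the candidates. Where a single group was marked it was the 5'-most annotated group in 4373 of 4742 genes (92.2%, 95% CI 91.4 to 92.9). In members the 5'-most group was marked in 408 of 435 genes (93.8%, 95% CI 91.1 to 95.7). The 2 shares are not like for like, since the rule gives members 2 or more marked groups. Members were long genes with many annotated starts, with a median length of 103 kb against 44.5 kb in candidates with a single marked group, and a median of 4 against 2 start groups. The rule itself favours both properties, and their part in the other differences was not tested.

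Upstream and downstream promoters lay a median of 44.8 kb apart, with quartiles of 13.99 and 122.7 kb. The spacing exceeded 50 kb in 205 genes (47.1%, 95% CI 42.5 to 51.8), 100 kb in 129 and 500 kb in 14. The largest spacings were found in Lsamp (1548 kb), Lrrc4c (1149 kb), Anks1b (956 kb), Camta1 (753 kb) and Pcdh15 (723 kb). Lsamp and Lrrc4c encode neuronal adhesion proteins and Pcdh15 a protocadherin of hair cells. Several of their peaks were narrow. Lsamp had peaks of 481 bp upstream and 359 bp downstream, Lrrc4c of 321 and 1572 bp, and Pcdh15 of 1014 and 319 bp. In Anks1b (1415 and 894 bp) and Camta1 (1368 and 799 bp) the upstream peak was near the median of 1301 bp for all upstream peaks. At the limit of the rule, the members with the closest TSSs were 1700001O22Rik (5043 bp), Smad6 (5072 bp) and Bmf (5100 bp). The marked TSSs of Snx18 (4923 bp), Nfatc1 (4898 bp) and Ptms (4879 bp) lay just inside 5 kb, so these genes were not members.

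**Figure D1:**
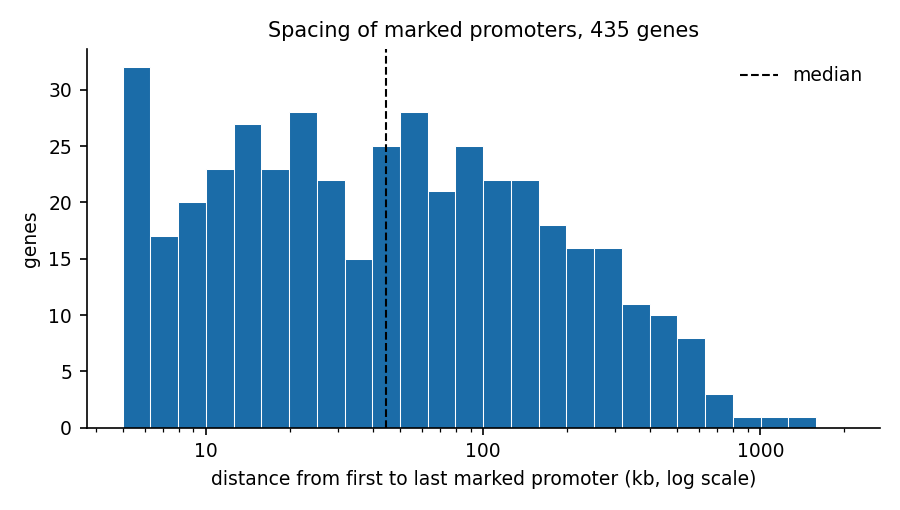
Histogram of the distance in kb (log axis) from the upstream to the downstream marked promoter of 435 member genes, with the number of genes on the vertical axis and the median of 44.8 kb as a dashed line. The distances run from 5.04 to 1548 kb, with 129 genes above 100 kb.

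Marked promoters more than 5 kb apart were usually a pair. Of the 435 genes, 387 had 2 marked start groups, 38 had 3, 9 had 4 and 1 had 5. The gene with 5 was Abr, which encodes a regulator of small GTPases. Its promoters lay 0, 8.92, 50.8, 126.9 and 185 kb from the upstream one, with peaks of 1700, 400, 877, 2249 and 670 bp, so that the widest was the fourth. Dst had 4 marked promoters at 0, 5.95, 115.7 and 231 kb, and its upstream peak of 2186 bp was the widest. Mast4, a kinase gene, had 4 at 0, 237.6, 376 and 428 kb with similar peaks of 1790, 1347, 1300 and 1666 bp. Dab2ip, a gene for a Ras GTPase-activating protein, had 4 promoters at 0, 40.9, 80.3 and 111 kb with 1551, 986, 2195 and 1072 bp. Iqsec1, an exchange factor gene for ARF GTPases, had 4 at 0, 224.5, 252 and 272 kb with 1205, 782, 1790 and 1386 bp. In both, as in Abr, the widest peak was internal. In Tns1, from the cytoskeletal list described below, which encodes the focal adhesion protein tensin 1, the widest of 4 peaks was also internal, with 1105, 881, 1385 and 516 bp at 0, 33.1, 87.3 and 161 kb. The 59 promoters that lay between the outer ones had a median peak width of 1300 bp, close to that of the upstream promoters, and 28 of them (47.5%, 95% CI 35.3 to 59.96) had an island.

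**Figure D2:**
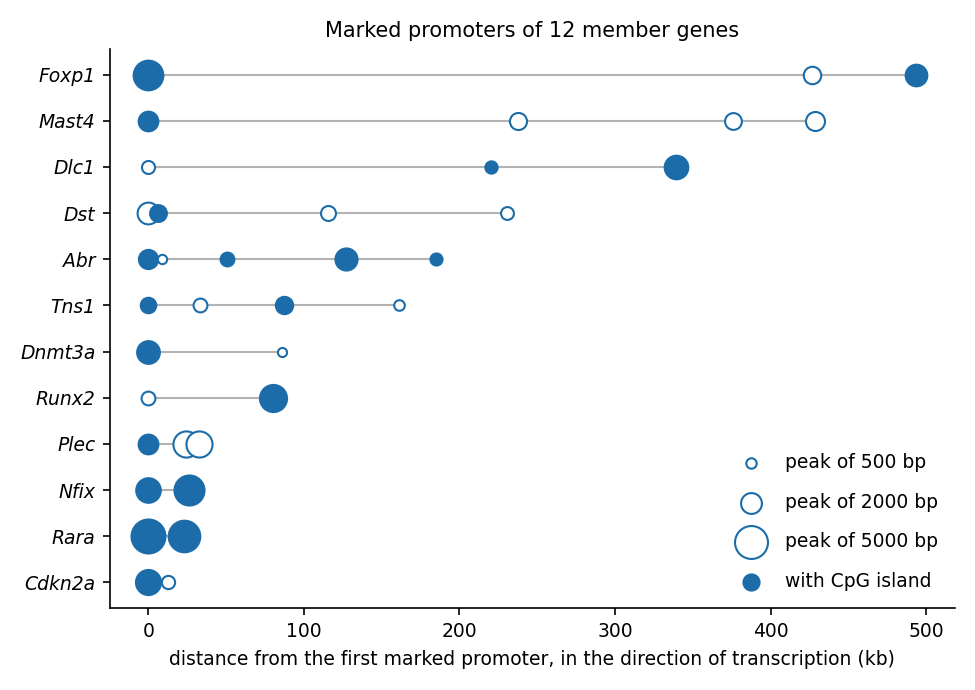
Marked promoters of 12 member genes, placed by their distance in kb from the upstream one in the direction of transcription. Each circle is a promoter, its area follows the width of its widest peak, and filled circles had a CpG island, which shows Runx2 and Dlc1 with the island and the wider peak downstream.

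Upstream peaks were on the whole wider. Their median width was 1301 bp (quartiles 857 and 1804 bp), against 954 bp (542.5 and 1487 bp) downstream and 1225 bp for the widest peak of candidates with a single marked group. Within a gene the upstream peak was the wider in 272 of 435 (62.5%, 95% CI 57.9 to 66.9), by a median of 262 bp over all genes. The widths of the pair were within 1.5-fold of each other in 138 genes (31.7%) and over 3-fold apart in 123 (28.3%). Across genes the widths of the pair had a Spearman correlation of 0.03 (n = 435 genes of the same libraries). The widest upstream peaks were those of Tfap2a (5641 bp, beside 1279 bp downstream), Rara (5312 bp) and Bcl9l (5288 bp, beside 1390 bp downstream). Tfap2a encodes the transcription factor AP-2 alpha and Bcl9l a coactivator of beta-catenin. The widest downstream peak, 7130 bp, was that of Smad7, an inhibitory SMAD gene with an upstream peak of 3603 bp. It was followed by Arhgef2 (4668 bp downstream, 278 bp upstream), which encodes a guanine nucleotide exchange factor bound to microtubules, and Rara (4600 bp). In some genes the peaks of the pair nearly touched although the TSSs were over 5 kb apart. The gap was 229 bp in Smad7, 255 bp in Tfap2a and 26 bp in Smad6, and it was at most 1 kb in 6 genes. When peaks within 1 kb were merged, 12 of the 435 genes were no longer members, among them these 3 and Tpm1. Rara, Bcl9l and Arhgef2 remained members. Regions and genes are not replicates, so no test was run on any of these shares, and the Wilson intervals cover counting error only.

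Peak width differed between genes by the position of the CpG island. An island overlapped the upstream peak in 355 genes (81.6%, 95% CI 77.7 to 85.0) and the downstream peak in 199 (45.7%, 95% CI 41.1 to 50.4), while candidates with a single marked group had one at 87.9% of their widest peaks. Both peaks had an island in 163 genes, the upstream peak alone in 192, the downstream peak alone in 36 and neither in 44. With islands at both, the median widths were 1296 bp upstream and 1361 bp downstream, and the upstream peak was wider in 78 of 163 genes (47.9%, 95% CI 40.3 to 55.5). With an island upstream alone they were 1498 and 641.5 bp, and the upstream peak was wider in 165 of 192 (85.9%, 95% CI 80.3 to 90.2). With an island downstream alone the order turned, to 672.5 bp upstream and 1420 bp downstream, and the upstream peak was wider in 6 of 36 genes (16.7%, 95% CI 7.87 to 31.9). With an island at neither the medians were 945.5 and 833 bp, and the upstream peak was wider in 23 of 44.

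A wide peak has more bases with which to meet an island, so the classes were also formed from islands within 500 bp of the TSS, whatever the peak. The upstream peak was then wider in 73 of 149 genes with islands at both, 157 of 190 with an island upstream alone, 13 of 41 with an island downstream alone (31.7%, 95% CI 19.6 to 47.0) and 29 of 55 with neither. Members with the wider peak at a downstream island included Runx2 (878 and 3386 bp), Dlc1 (782 and 2565 bp) and Ccnd3 (792 and 3075 bp). Dlc1 encodes a GTPase-activating tumour suppressor and Ccnd3 cyclin D3. Smad7 stood out in the other direction, since its 7130 bp downstream peak overlapped no called island although its upstream peak did.

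**Figure D3:**
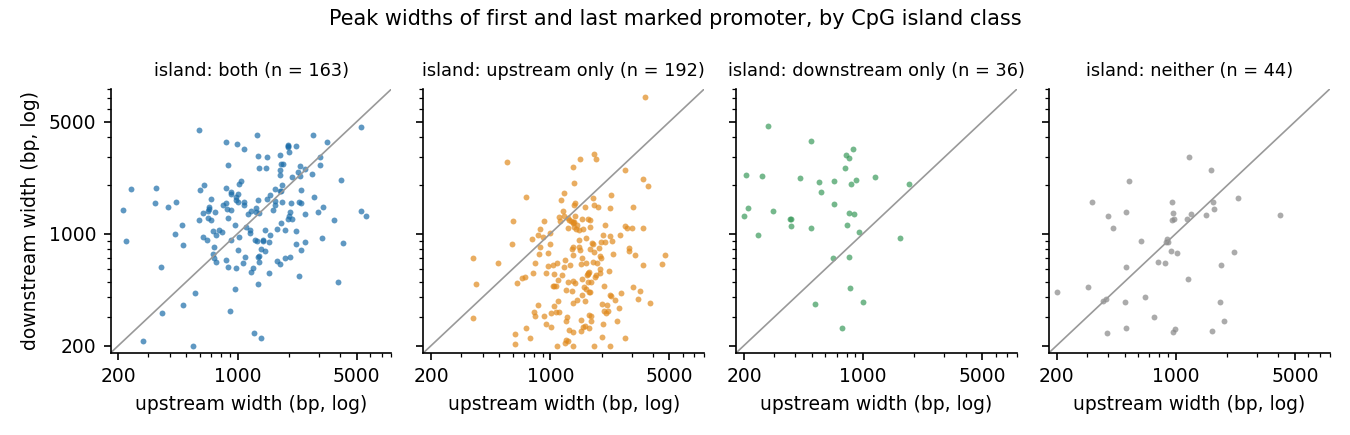
Width in bp of the downstream against the upstream peak (log axes) for 163, 192, 36 and 44 member genes with a CpG island at both, the upstream, the downstream or neither peak. Each point is a gene and the line marks equal widths. Genes with an island at the upstream peak alone lie mostly below the line and those with an island at the downstream peak alone mostly above it.

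CpG content was also counted around the start sites, in windows from 250 bases before to 50 after the TSS. Upstream windows held a median of 19 CpGs (quartiles 12 and 31) and downstream windows 10 (6 and 21.5), and the marked promoters of all other protein-coding genes held 19. The median GC content was 63.0% upstream, 57.3% downstream and 60.3% in the other genes. Because islands are called from CpG density, the counts by island class are largely fixed by the classes and are given as a description. With islands at both peaks the medians were 23 CpGs on either side. With an island upstream alone they were 25 and 7, and with an island downstream alone 10 and 16.5. A TSS lay in a masked repeat in 40 upstream (9.20%) and 45 downstream promoters (10.3%), against 7.57% in the other genes.

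**Figure D4:**
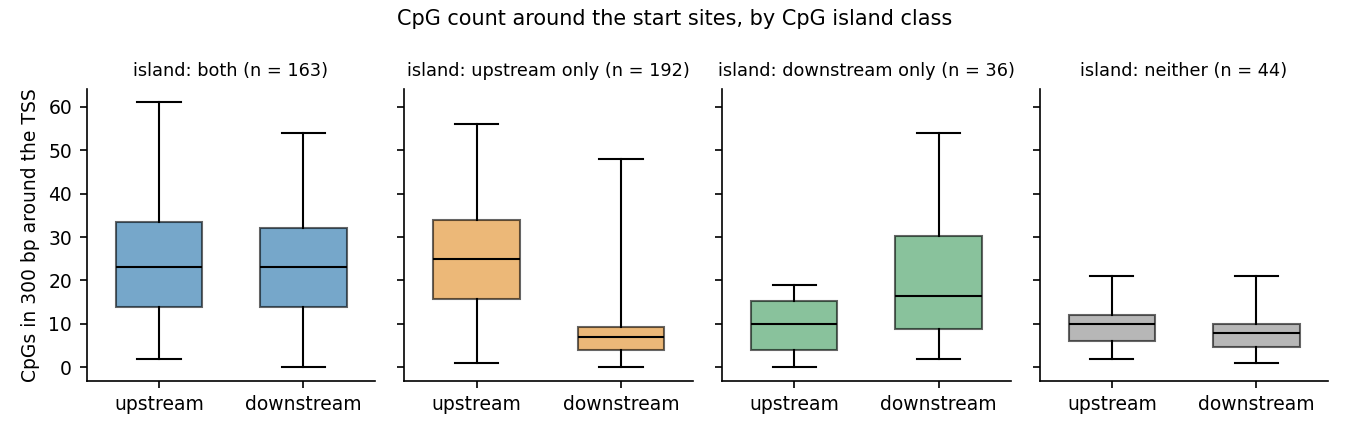
CpG dinucleotides in the 300 bases around the upstream and downstream TSS for the 4 island classes. Boxes span the quartiles with the median as a line, and whiskers reach the lowest and highest gene. Medians are 23 and 23, 25 and 7, 10 and 16.5, and 10 and 8 CpGs.

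Both strands of these windows were searched for short motifs, of which none contains another. The GC box GGGCGG, which SP family factors bind, was present in 299 of 435 upstream windows (68.7%, 95% CI 64.2 to 72.9) and 207 downstream windows (47.6%, 95% CI 42.9 to 52.3), beside 64.3% of the promoters of all 9132 marked genes. Downstream windows of genes with an island upstream alone held it in 55 of 192 cases (28.6%). GGGCGG contains a CpG and this class lacks a downstream island, so that share largely follows from the class. The AP-1 motif TGANTCA showed the opposite order, with 14 upstream windows (3.22%, 95% CI 1.93 to 5.33), 41 downstream windows (9.43%, 95% CI 7.02 to 12.5) and 4.53% of all marked promoters. Its share was 11.5% (22 of 192) in downstream windows of genes with an island upstream alone and 6.75% (11 of 163) where both peaks had an island. The TATA box TATAAA was found in 5.29% upstream, 8.51% downstream and 7.04% of all marked promoters, and the 95% intervals of the members included the overall share. CCAAT was present in 29.0%, 34.9% and 36.9%. The ETS motif CCGGAA was less frequent in members, at 14.0% (95% CI 11.1 to 17.6) upstream and 9.89% (95% CI 7.42 to 13.1) downstream against 23.2%. The cyclic AMP response element TGACGTCA (2.99%, 1.61% and 3.09%) and the NRF1 motif (1.61%, 0.46% and 1.78%) were rare throughout. Motifs that contain a CpG, such as GGGCGG and CCGGAA, are tied to CpG content, and the shares were not adjusted for it. A match describes the letters only.

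Promoter choice changed the annotated start of the protein in most genes where this could be read. Both promoters had a protein-coding transcript with a complete start in 309 genes, and their sets of start codons differed entirely in 205 of these (66.3%, 95% CI 60.9 to 71.4). In 104 genes a start codon was shared. In 94 further genes the upstream promoter alone had such a transcript, in 21 the downstream promoter alone, and in 11 neither. The class went along with the downstream width. The downstream peak had a median of 1068 bp with different codons, 1179 bp with a shared codon and 570.5 bp where the downstream promoter had no such transcript, and an island overlapped it in 47.8%, 53.8% and 31.9%. With islands at both peaks the codons differed in 84 of 128 genes (65.6%).

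Not all annotated starts have the same support. A RefSeq transcript started within 500 bp on the same strand at 405 upstream promoters (93.1%, 95% CI 90.3 to 95.1) and 310 downstream promoters (71.3%, 95% CI 66.8 to 75.3), and at both in 290 genes (66.7%). In these 290 genes, a restriction chosen after seeing the data, the differences were smaller but kept their direction. The upstream peak was wider in 162 (55.9%, 95% CI 50.1 to 61.5), with medians of 1299 and 1085 bp, and islands overlapped 80.7% of upstream and 50.7% of downstream peaks. The 125 downstream promoters without a RefSeq start had a median width of 620 bp, and 30.4% had an island.

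Putative enhancers, which the authors had defined by H3K4me1, H3K27ac and open chromatin, lay between the upstream and downstream promoter in 274 genes (63.0%, 95% CI 58.4 to 67.4). There were 1240 in 45.6 Mb of intervening sequence, or 27.2 per Mb. Whole gene bodies held 27.4 per Mb in members and 19.1 per Mb in candidates with a single marked group, and the chromosomes 12.1 per Mb. The most were found in Foxp1 (36 enhancers in 494 kb), which encodes a forkhead factor, Mecom (34 in 496 kb) and Dlc1 (26 in 339 kb), of which Mecom was chosen after its value was seen. Lsamp had none in 1548 kb and Pcdh15 none in 723 kb. Another H3K4me3 peak that was no member peak lay between the promoters in 172 genes (39.5%).

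Some member peaks overlapped an enhancer themselves. This was so for 195 of 1107 member peaks (17.6%, 95% CI 15.5 to 19.97) and for 369 of 10979 other peaks at kept TSSs of protein-coding genes (3.36%, 95% CI 3.04 to 3.71). Among the widest peaks of each promoter it applied to 54 upstream (12.4%, 95% CI 9.64 to 15.8) and 103 downstream peaks (23.7%, 95% CI 19.9 to 27.9). The authors had removed enhancers that touched a window of 1 kb around a TSS of their annotation, so an overlap depends on which starts that annotation held. Without a RefSeq start, 64 of 125 downstream peaks (51.2%) and 14 of 30 upstream peaks (46.7%) overlapped an enhancer. With a RefSeq start the shares were 12.6% downstream and 9.88% upstream, and the 95% intervals of these 2 groups of peaks overlapped. Whether the annotated starts without RefSeq support act as promoters or as transcribed enhancers cannot be told apart from positions.

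**Figure D5:**
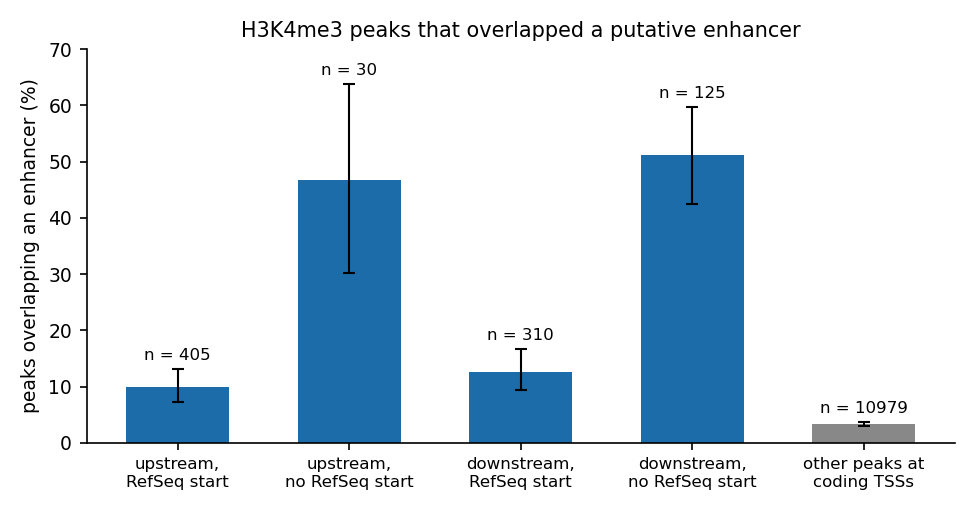
Share of peaks in percent that overlapped a putative enhancer, for the widest peak of upstream and downstream promoters with and without a RefSeq start and for other peaks at TSSs of protein-coding genes. Error bars are Wilson 95% intervals and n counts peaks. Promoters without a RefSeq start reach 46.7% and 51.2%, those with one 9.88% and 12.6%, and other peaks 3.36%.

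The members were then read by function, from gene lists of which 67 of 310 genes were members. Of 41 cytoskeletal linker and actin-binding genes, 37 were candidates and 18 (48.6%) were members, beside 5.30% of all candidates. The lists were chosen with earlier results known and hold long genes with known alternative promoters, so the shares are descriptions. The cytoskeletal members had a median spacing of 165 kb and median widths of 1416 and 1252 bp, and the upstream peak was wider in 11 of 18. Plec had 3 marked promoters at 0, 24.3 and 32.7 kb, and the peaks at the latter ones, of 3152 and 3145 bp, were wider than the upstream peak of 1799 bp. Macf1, a spectraplakin gene like Dst, had peaks of 2805, 779 and 1694 bp over 253 kb, with 17 enhancers between. Utrn, which encodes the dystrophin relative utrophin, combined 3263 bp upstream with 393 bp at a promoter 320.5 kb downstream. In Syne2 the same contrast was 2244 and 200 bp over 263 kb. With peaks within 1 kb merged, the downstream width rose to 1072 bp in Utrn and stayed at 200 bp in Syne2. Tpm1, the gene for the actin-binding tropomyosin 1, had the shortest spacing of the list, 5.44 kb, with 2495 and 1324 bp and an island at both, and it was no longer a member with peaks merged within 1 kb. Cald1 (caldesmon) had wide peaks of 2312 and 1667 bp without an island at either, and 12 enhancers between them. Start codons differed between the promoters in Plec, Macf1, Utrn, Tpm1 and Cald1.

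Of 55 transcription factor genes with several known promoters or isoforms, 47 were candidates and 13 were members. The 13 include Smarca2 (3038 and 1475 bp), a chromatin remodelling gene that this list held. The peaks of the 13 were wide, with medians of 2082 bp upstream and 1475 bp downstream. Rara and Rarg, which encode retinoic acid receptors, each had islands at both promoters and different start codons, at spacings of 22.7 and 11.02 kb. The order of widths was opposite, with 5312 and 4600 bp in Rara and 1988 and 3540 bp in Rarg. Nfix (2778 and 4154 bp, 26.0 kb) likewise had the wider peak downstream. Foxp1 had peaks of 4060, 1409 and 2160 bp over 494 kb. Its paralogue Foxp2 had 1731 bp upstream and 306 bp 284 kb downstream, with a shared start codon. Tcf7l2, a mediator of Wnt signalling, had 3906 and 495 bp, and Creb5 2082 and 1125 bp. Runx2 was the member of this list with an island at the downstream peak alone. The kept TSSs of its downstream start group had no complete coding transcript and no RefSeq start within 500 bp. TSSs that the rule left out are not covered by this. The downstream peak overlapped an enhancer.

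Small GTPase regulators contributed 13 members of 40 candidates, with a median spacing of 183 kb and medians of 1265 and 984 bp. The upstream peak was wider in 10 of the 13. Trio (2887 and 773 bp, 237 kb) and Kalrn (2580 and 984 bp, 478 kb), paralogous exchange factor genes, had the wider peak and the island upstream. The exceptions were Dlc1 and Arhgef2, with the island and the wider peak downstream, and Arhgef7 (603 and 1881 bp, islands at both). Arhgap22 had the island downstream but the wider peak upstream (1645 and 934 bp), against the order of its class. Arhgap24 had an island at neither of its outer promoters and narrow peaks of 864, 368 and 658 bp over 364 kb.

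Of 53 candidate chromatin regulator genes, 11 were members, and 9 of these had an island at the upstream peak alone. Dnmt3a, which encodes a de novo DNA methyltransferase with a long and a short isoform, had 2382 bp upstream and 383 bp at the promoter 85.7 kb downstream, with different start codons. Kdm2a (1182 and 1380 bp, 63.1 kb) and Kdm2b (1046 and 2138 bp, 52.2 kb), genes for CpG-binding demethylases, both had the wider peak downstream and different start codons, and Kdm2b had an island at both. With peaks within 1 kb merged, the order turned in Kdm2a, to 3270 bp upstream and 1938 bp downstream, and stayed in Kdm2b. Hdac9 had 1091 and 200 bp over 379 kb, so that its downstream peak had the lowest width in the list. In Rere and Tet1 the downstream promoter had no complete coding transcript and its peak overlapped an enhancer. Of 55 candidate signalling genes 8 were members. Ptch1, the Hedgehog receptor gene, had 1296 and 4117 bp at promoters 7.86 kb apart. Pde4d, a cyclic AMP phosphodiesterase gene, had 4 marked promoters over 569.9 kb with 1672, 1382, 356 and 1233 bp, and Pde4a had 1906 and 709 bp over 15.9 kb. Among 12 candidate immortalisation and cell cycle genes 3 were members (Ccnd3, Cdkn2a, Rb1), and Impact was the member among 15 candidate imprinted genes.

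Cdkn2a, on chromosome 4, encodes the growth inhibitors p19Arf and p16Ink4a from separate promoters, and its loss or silencing is a known route to immortal fibroblasts. Both promoters were marked in these cells. The upstream promoter, which serves p19Arf, had a peak of 2899 bp with an island and 44 CpGs in its window. The downstream promoter, which serves p16Ink4a, lay 12.5 kb away with a peak of 810 bp, 12 CpGs and no called island. A further 5 peaks lay between them, and none of these overlapped an exon. In Rb1, which acts downstream of p16Ink4a, the promoter had 1980 bp and the downstream start 699 bp, without a RefSeq start and overlapping an enhancer. With peaks within 1 kb merged, the widths in Rb1 were 1980 and 1840 bp.

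Ash2l itself was a member, and its peaks had an unusual placement, noticed after the values were seen. The gene (chromosome 8, 25815996 to 25847694, minus strand) had an island and a peak of 1979 bp at its upstream marked promoter. The other start groups with a peak lay 7.24 and 17.2 kb downstream, with 358 and 884 bp, and they had no RefSeq start. The gene body of 31.7 kb held 12 peaks, or 0.379 per kb against a median of 0.0307 per kb over member genes. In 4 other member genes this density was higher. Of the 12 peaks in Ash2l, 8 were no member peaks, and all 8 overlapped an annotated exon and measured 335 to 387 bp. Another 4 member genes held more such peaks than Ash2l. Over all member genes 105 of 570 such peaks (18.4%) overlapped an exon. Of 76 member genes with at least 3 such peaks, all of them lay on exons in 2, Ash2l and Sptbn4. Overlapping exons of all transcripts were merged, which gave 15 exon blocks in Ash2l. From the centre of a peak to the nearest block centre it was 8, 14, 15.5, 18.5, 166.5, 381.5, 972.5 and 1076 bp for these 8 peaks. For the 4 member peaks it was 0.5, 9, 206 and 381.5 bp. A block can join exons of several transcripts, so these distances do not place a peak against a single exon. The part of each gene body covered by exons was not measured. The exon shares of Ash2l and of all members are therefore not like for like. These cells carry a lentiviral transgene that encodes human ASH2L, and whether reads from it entered these peaks was not tested. The distant promoters of Ash2l are therefore reported as positions only.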

How the data were processed

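H3K4me3 ChIP-seq libraries of iMEF cells were sequenced by the authors, who per the methods trimmed reads with Trim Galore, aligned them with BWA to mm10 (GRCm38.p6), filtered them with SAMtools, merged replicates with Picard and called narrow peaks with MACS. The deposited lists hold other values than counts, namely start and end positions in bases of the union of H3K4me3 peaks over all samples and of putative enhancers in control cells. Per sample they give 0 columns. The planned count test of dTAG effects could therefore not be run, and shares, medians and quartiles are given without tests. Of the peaks, 74 lay off the chromosomes and were left out. Starts of peaks were taken to count from 0 and those of enhancers from 1, as their widths imply.

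Each transcript of GENCODE release M21 gave a TSS at its 5' end. TSSs of a gene over 5 kb from the first of their group opened a new start group, each represented by its TSS with the most transcripts and its widest peak. These were chosen separately, so the widest peak need not lie at that TSS. Where both outer groups shared the widest peak, the pair of different peaks with the largest summed width was used. CGIs were called on repeat-masked GRCm38.p6 (score 17 for a CpG, -1 for another base; over 200 bp, GC over 50%, observed to expected CpG over 0.6), which gave 16280 islands. An enhancer counted as between promoters by its centre. Shares have Wilson 95% intervals.

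The members and gene lists were chosen with earlier results of these data known. The text names members of those lists, the 5 genes with the largest spacing, 5 with the most start groups (9 genes tied at 4, taken in order of their names), 3 with the widest upstream and 3 with the widest downstream peak, and 3 on either side of the spacing limit. Sequences are those of the 2 listed genes per island class with the widest narrower peak, of which 1 is not reported here. In simulated data the rule recovered 186 of 186 planted member genes of 1200 and called 0 others, 0 of 1600 interval queries differed from a full search, and 99 of 99 planted islands were found. Alternatives changed the window, spacing, transcript set, neighbour rule, minimum width, merging, island definition, enhancer set and choice of start groups. Python 3.11.15, NumPy 2.4.6, SciPy 1.17.1, Numba 0.67.0 and Matplotlib 3.10.9 were used.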

Additional observations from a re-analysis of the deposited data

How the results depend on the processing

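Of 136 alternative values, 108 stayed inside the 95% interval of the main setting (counts, within 1.5 times of it). A reversal was defined for the share of genes with the wider peak upstream alone, and 0 values of that share reversed. Transcripts tagged basic gave 253 genes and 614 peaks, 11.8% of candidates and a downstream island in 51.4%. The upstream peak was then wider in 55.3% (95% CI 49.2 to 61.3), an interval that includes an even split. Keeping TSSs near other genes gave 694 genes and 1782 peaks, 7.30% of candidates, a median spacing of 30.7 kb, a downstream island in 53.5%, different start codons in 60.1% and an enhancer between in 53.2%. The share of candidates was 4.00% with the peak centre within 500 bp, 8.33% with protein-coding transcripts and 6.02% when TSSs of other coding genes alone were avoided. Peaks of at least 500 bp gave 723 peaks, 3.86% of candidates, a wider upstream peak in 57.4% and a downstream island in 53.3%. A spacing over 2 kb gave a median of 21.9 kb and enhancers between in 50.3%, and over 10 kb 57.1 kb and 71.8%. Stricter islands gave 60.7% upstream and 29.9% downstream. Enhancers over 1 kb from every TSS lay between promoters in 54.7%. A RefSeq start at both promoters, chosen after seeing the data, gave a wider upstream peak in 55.9% and a downstream island in 50.7%. Leaving out chromosome 15, also chosen afterwards, kept every value inside these limits. In all of these the upstream share of islands stayed above the downstream share.

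No paired analysis was possible because values per sample were not at hand, although replicate numbers are shared between groups. Leaving out a replicate was impossible for the same reason. Neither depth nor a score is known for any peak, and the number of members depends on the transcript annotation.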

Other observations

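Member genes were found on all chromosomes examined except Y, which had 6 candidates. The share of candidates ranged from 3.11% on chromosome 12 to 8.33% on chromosome 18 (17 of 204), followed by 7.67% on chromosome 15 (24 of 313), and chromosome X had 6.12%.

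Some member genes held many peaks for their length, and 3 with the highest number of peaks per kb of gene body were picked here for it after the values were seen. Hoxa10, a homeobox gene of the limb and trunk, had 7 peaks in a gene body of 9.66 kb, 4 of which were no member peaks and 0 of which overlapped an exon. Nr2f2, which encodes an orphan nuclear receptor of mesenchymal and venous cells, had 9 peaks in 14.8 kb, of which 5 were no member peaks and 3 of those overlapped an exon. Vim, the gene of the intermediate filament vimentin and a fibroblast marker, had 4 peaks in 8.90 kb. Hoxa10 was no longer a member when peaks within 1 kb were merged. The highest count of peaks that were no member peaks was 14, in Tbx15 (113.9 kb), a T-box gene, followed by 10 in Rbfox2 (228 kb), a splicing factor gene, and 0 of these overlapped an exon in either gene.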
